A study of Homo sapiens with 12 samples.

Results

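The genes described here are 43 interferon-stimulated genes, taken from the table by symbol for their known roles: transcription factors of the response, sensors of viral RNA, antiviral effectors, parts of the antigen processing machinery and 1 chemokine. All 43 were found among the 62703 gene IDs of the read count table, and all 43 passed the filter on low counts that left 21567 genes to test. The cells were H69, a cholangiocyte line made from normal human bile duct epithelium with a viral large T antigen. Every group went without serum for 6 h and was then kept overnight in serum-free medium. The 4 groups differed in what was added: vehicle, TGFβ at 10 ng/mL, Aramchol at 30 µM, or TGFβ and Aramchol together ("both" below). TGFβ is a cytokine of fibrosis, and Aramchol is a bile acid joined to a long saturated fatty acid that inhibits stearoyl-CoA desaturase. The labels state the Aramchol dose once, for the series as a whole. Each group had 3 libraries, numbered 1 to 3, of 1 cell line. Nothing in the labels says that libraries came from separate cultures, so the p-values measure only the spread between libraries, which may be technical.

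Interferons are secreted proteins that put cells into an antiviral state. Type I and type III interferons act through the kinases JAK1 and TYK2, and lead to the assembly of ISGF3, a complex that includes STAT2 and IRF9 and switches on genes that carry an interferon-stimulated response element. Some of these genes, among them IFIT2, IFIT3, OASL, HERC5 and CXCL10, can also be switched on directly by IRF3 once viral nucleic acid is sensed, without interferon. The proteins made block viral translation, cut viral RNA, tag proteins with the small modifier ISG15 and prepare peptides for display to T cells. Bile duct epithelium carries these sensors and receptors and makes many of these genes.

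Library totals ran from 52279922 to 70339925 counts. In a single library 3 counts, taken here as the limit that a count of 0 allows, were worth 0.0427 to 0.0574 CPM. Levels are in CPM, the count relative to library size, here with the sizes scaled by TMM. The labelled cell type was borne out in part by its markers: KRT8 stood at 478 to 1033 CPM, KRT18 at 252 to 402 and KRT7 at 275 to 999.9. CFTR and SPP1 never passed 0.182 CPM. Of 12 leukocyte markers, CD3E and CLEC4C had no count, PTPRC never passed 0.148 CPM, and nearly all of the summed 21.0 to 35.9 CPM came from CD14 and CSF1R. Transcripts of the interferons themselves were scarce: IFNG had no count in any of 12 libraries, IFNB1 reached 0.170 CPM at most, and IFNL1 lay between 0.0663 and 0.554 CPM. IFNE, an interferon of epithelia, was the most abundant at 2.37 to 4.26 CPM.

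The stretches of promoter printed here are those of 6 of the genes on which the results turn, to show the letters that the family's response element is built from. Promoter windows from RefSeq (GRCh38.p14) were found for 36 of the 43 genes, 50 windows in all, and the 250 bases before each start site were searched on both strands. The core of the response element was searched as a GAAA block followed, after any 2 bases, by another GAAA block, and the site bound by STAT dimers as TTCNNNGAA, which reads the same on both strands; matches of either motif may overlap others. This pair of GAAA blocks was present in 48.0% of the members' windows (24 windows, 21 genes) and in 3.02% of all 35116 windows of this length. TTCNNNGAA was present in 24.0% of the members' windows (12 windows, 11 genes) and in 6.57% of all windows. Each line gives 60 bases from 5′ to 3′ in the direction of transcription, with bases of such pairs on either strand in capitals. IFIT3 (chr10:89327850-89327909, plus strand), HERC5 (chr4:88457020-88457079, plus strand) and DDX60 (chr4:168318771-168318830, minus strand) are shown because they were lower with TGFβ and held such a pair. STAT2 and IRF1, with smaller p-values for TGFβ, had windows without such a pair. ISG20 (chr15:88638922-88638981, plus strand), ISG15 (chr1:1013365-1013424, plus strand) and IFI6 (chr1:27672251-27672310, minus strand) are shown because they had the smallest p-values for the libraries numbered 3.
IFIT3: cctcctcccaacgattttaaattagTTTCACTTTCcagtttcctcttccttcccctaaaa
HERC5: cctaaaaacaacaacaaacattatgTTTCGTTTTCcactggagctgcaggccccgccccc
DDX60: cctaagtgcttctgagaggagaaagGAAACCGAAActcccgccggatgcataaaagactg
ISG20: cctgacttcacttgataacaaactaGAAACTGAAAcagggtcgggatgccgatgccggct
ISG15: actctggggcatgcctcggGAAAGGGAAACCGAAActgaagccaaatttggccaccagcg
IFI6: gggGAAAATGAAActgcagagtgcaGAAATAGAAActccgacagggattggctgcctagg
In HERC5 and IFIT3 the match lies on the opposite strand, and in ISG15 a pair of matches run into each other. In the windows printed, the match nearest the start began 53 bases before it in DDX60 and 122 bases before it in IFIT3. IFIT3 had another window, not printed, with matches that began 94 and 51 bases before its start. A match describes letters only and does not show binding.

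Several of the genes are neighbours (GRCh38 coordinates of the count table). IFIT2 (chr10:89283694-89309271), IFIT3 (chr10:89327307-89377473), IFIT1 (chr10:89392546-89406487) and IFIT5 (chr10:89414568-89421605) follow each other on chromosome 10. OAS1, OAS3 and OAS2 lie side by side on chromosome 12, and OASL (chr12:121017763-121039246) lies apart on the same chromosome. HERC6 and HERC5 (chr4:88457119-88506163) adjoin on chromosome 4, MX2 and MX1 on chromosome 21, IFI44L and IFI44 on chromosome 1, SAMD9 and SAMD9L on chromosome 7, and PARP9 and DTX3L on chromosome 3. TAP2, PSMB8 (chr6:32840717-32844679), PSMB9 and TAP1 lie together in the class II region of the major histocompatibility complex on chromosome 6. Exons of 19 members share bases with another gene, and with no strand setting known for the counting, reads of such pairs cannot be told apart. The share passed 20% in 4 members, IRF9, IRF1, XAF1 and IFI6.

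Levels differed widely between the genes. Per length, as CPM divided by the length in kilobases (RPKM) averaged over 12 libraries, ISG15 was highest at 273, followed by IFI6 at 161 and IFI44 at 75.9. ISG15 encodes a ubiquitin-like protein that is joined to other proteins or secreted, IFI6 a small membrane protein with antiviral activity, and IFI44 a cytoplasmic interferon-induced protein. The lowest were XAF1 at 0.208 RPKM and CXCL10, the chemokine that draws activated T cells, at 0.691 RPKM. The group mean was highest with Aramchol for 32 of the 43 genes, with vehicle for 7 and with both agents for 4. It was lowest with TGFβ for 24 genes, with vehicle and with both for 9 each, and with Aramchol for 1, CXCL10. Summed, the 43 genes took 0.561, 0.541 and 0.573% of all counts with vehicle and 0.452, 0.405 and 0.304% with TGFβ. They took 0.783, 0.768 and 0.487% with Aramchol and 0.473, 0.493 and 0.422% with both. Aramchol libraries 1 and 2 stood above all others, whereas Aramchol library 3 lay below the vehicle libraries.

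**Figure D1:**
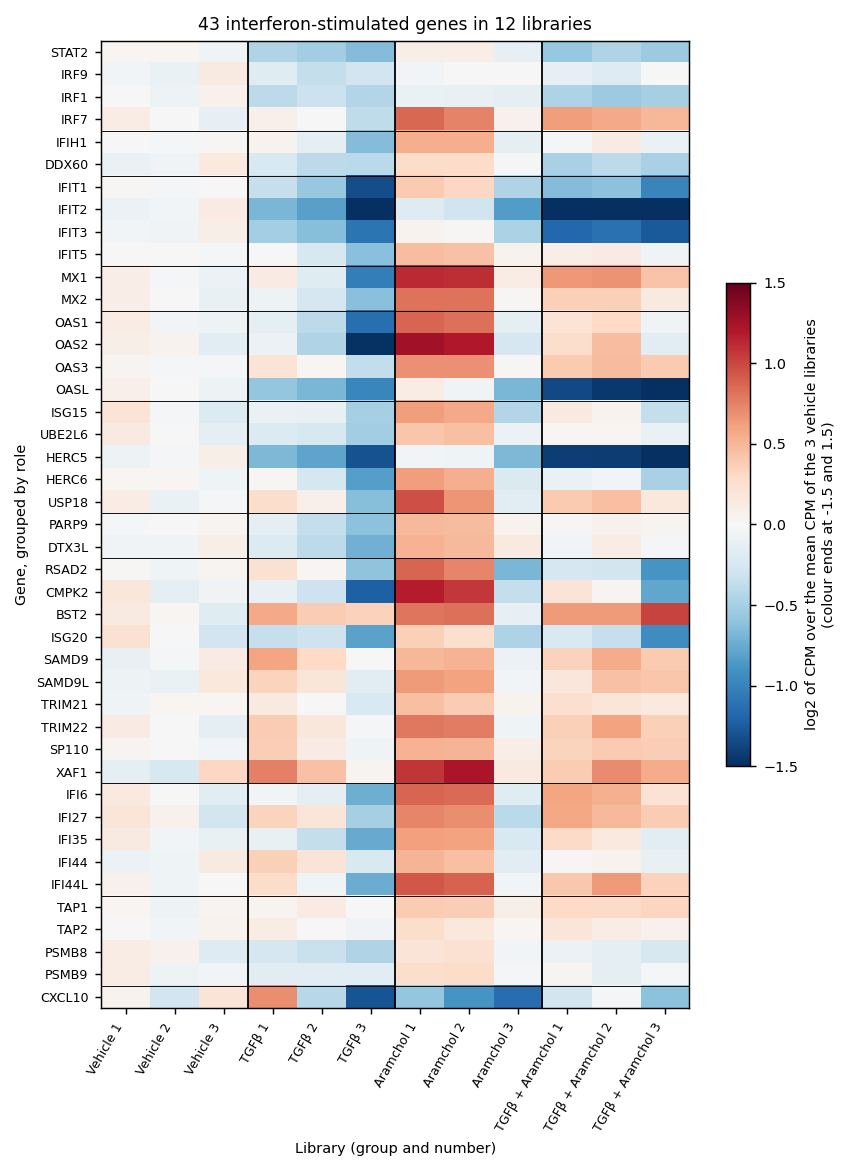
Each row is 1 of the 43 genes, grouped by role, and each column 1 of the 12 libraries; the colour is the log2 ratio of CPM to the mean of the 3 vehicle libraries, with the scale ending at -1.5 and 1.5. Aramchol libraries 1 and 2 are red for most genes while Aramchol library 3 is pale, TGFβ library 3 is the bluest of its group, and IFIT2, IFIT3, OASL and HERC5 are darkest blue with both agents.

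The libraries numbered 3 stood apart for these genes, so they are described before the treatments. In a fit with the 4 groups and an indicator for number 3, 28 of the 43 genes were lower in the libraries numbered 3 than in those numbered 1 and 2, and none was higher (edgeR quasi-likelihood test, Benjamini-Hochberg adjusted p under 0.05). At an unadjusted p under 0.05 there were 33, a level not counted over all genes here or below. DESeq2 gave 27 lower (7.96% of all genes) and none higher (5.99%). Of all 21567 genes tested, 7.34% were lower and 5.29% higher with edgeR at an adjusted p under 0.05. The median log2 difference was -0.34 over the members and -0.01 over all genes. Without Aramchol library 3, 17 members were lower, beside 4.35% of all genes. What the number stands for is not stated in the labels. The contrast was set with earlier results of these data known. Its p-values, and those of fits with a term for number 3 or without the libraries numbered 3, are therefore no independent test.

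ISG20, an exonuclease that degrades viral RNA, gave the smallest p. Its levels in libraries 1, 2 and 3 were 52.03, 44.5 and 36.4 CPM with vehicle, 34.8, 35.7 and 25.5 with TGFβ, 56.7, 52.4 and 32.1 with Aramchol and 37.9, 34.9 and 23.2 with both. Library 3 was the lowest of its group in all 4 groups, and the fit put it 1.48-fold lower (log2 change -0.57 ± 0.057 (SE), edgeR adjusted p = 6.04e-06). ISG15 behaved alike, at 268, 227 and 200.3 CPM with vehicle, 217, 214 and 164 with TGFβ, 357, 343 and 172 with Aramchol and 255, 239.5 and 182 with both. Its difference was 1.45-fold (log2 change -0.53 ± 0.079 (SE), edgeR adjusted p = 0.000243), and Aramchol library 3 was the lowest but 1 of all 12. For IFI6 the values were 142, 128 and 114 CPM with vehicle, 124, 116 and 76.9 with TGFβ, 235, 232 and 113 with Aramchol and 192, 186 and 149 with both (log2 change -0.56 ± 0.084 (SE), edgeR adjusted p = 0.000252). Aramchol libraries 1 and 2 were the highest of all 12 for this gene, and TGFβ library 3 was the lowest.

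IFI27, a mitochondrial protein used as a blood marker of viral infection, measured 82.3, 75.8 and 59.97 CPM with vehicle, 91.4, 82.6 and 51.3 with TGFβ, 121, 118 and 54.7 with Aramchol and 109, 102 and 94.3 with both (log2 change -0.60 ± 0.096 (SE), edgeR adjusted p = 0.000506). OAS2, which makes the 2′-5′ oligoadenylates that activate RNase L, showed the widest gaps of these 8 genes. It was at 78.2, 75.8 and 65.8 CPM with vehicle, 68.9, 53.4 and 26.2 with TGFβ, 176, 169 and 61.6 with Aramchol and 88.2, 101 and 64.98 with both, which made it 1.78-fold lower in the libraries numbered 3 (log2 change -0.83 ± 0.14 (SE), edgeR adjusted p = 0.000536). Besides TGFβ library 3 and Aramchol library 3, TGFβ library 2 and library 3 of both agents lay under 65.8 CPM, the lowest vehicle value. IFI35, a partner of the protein NMI in innate signalling, was at 51.6, 45.4 and 43.5 CPM with vehicle, 43.3, 36.6 and 27.8 with TGFβ, 71.6, 71.3 and 39.9 with Aramchol and 57.1, 52.1 and 41.9 with both (log2 change -0.47 ± 0.077 (SE), edgeR adjusted p = 0.000549). HERC6, a ubiquitin ligase next to HERC5, was at 94.2, 94.2 and 88.7 CPM with vehicle, 93.5, 77.2 and 52.1 with TGFβ, 142, 135 and 79.2 with Aramchol and 85.9, 89.5 and 65.95 with both (log2 change -0.49 ± 0.081 (SE), edgeR adjusted p = 0.000549). In all 4 groups library 3 was the lowest for both. OASL, an OAS-like protein that makes no oligoadenylate and enhances RIG-I signalling, was at 414, 395 and 372 CPM with vehicle, 263, 244 and 200.2 with TGFβ, 424, 379.6 and 246 with Aramchol and 154, 145 and 115 with both (log2 change -0.38 ± 0.063 (SE), edgeR adjusted p = 0.000586).

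The gap was not of 1 size in the 4 groups, although the difference between groups was not tested. With vehicle, library 3 was the lowest of its group for 19 members and the highest for 18, and the median log2 gap to the mean of libraries 1 and 2 was -0.02. In the TGFβ group it was the lowest for 42 members, with a median of -0.46. With Aramchol it was again the lowest for 42, with a median of -0.67. With both agents it was the lowest for 29 and the highest for 3, with a median of -0.14. Over all genes tested, library 3 was the lowest of its group for 43.1, 35.3, 38.9 and 33.9% of genes in the same order. The median absolute log2 difference between libraries 1 and 2 over the members was 0.0776 with vehicle, 0.179 with TGFβ, 0.0337 with Aramchol and 0.0731 with both. Over all genes it was 0.0988, 0.0945, 0.0793 and 0.112, so that TGFβ libraries 1 and 2 lay farther apart for the members than for genes at large. The members' median log2 level relative to the vehicle mean was -0.0397 in TGFβ library 1, -0.24 in library 2 and -0.62 in library 3. By role, all 4 OAS genes, all 4 IFIT genes, all 5 genes of ISG15 conjugation and both MX genes were lower in the libraries numbered 3, as were 4 of 5 IFI genes. Of these, IFIT3 kept its call in 4 of 12 leave-outs (edgeR adjusted p of up to 0.273). IFIT2, OAS3 and IFI44L lost theirs without TGFβ library 3 or without Aramchol library 3. IFIT5, HERC5 and USP18 lost theirs without Aramchol library 3. Only 1 of 4 antigen processing genes (PSMB8) and neither member of the PARP9 complex passed the test.

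**Figure D2:**
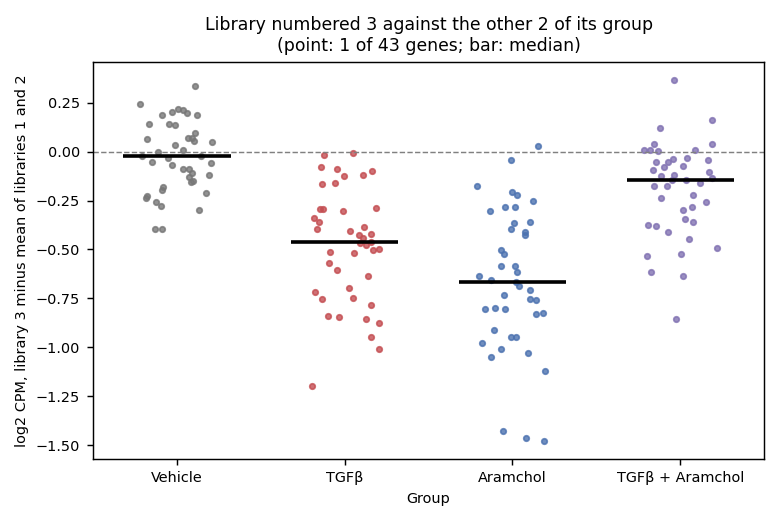
Each point is 1 of the 43 genes in 1 group, the vertical axis is the log2 CPM of library 3 minus the mean of libraries 1 and 2, and bars mark medians. The medians lie at -0.02 with vehicle, -0.46 with TGFβ, -0.67 with Aramchol and -0.14 with both.

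Other features of the libraries numbered 3 moved as well. Of 11 cholangiocyte markers tested, 4 were lower in them and none was higher: KRT7 (log2 change -0.56 ± 0.11 (SE), edgeR adjusted p = 0.00318), KRT18, EPCAM and KRT8. KRT7 was at 706, 677 and 275 CPM in the vehicle libraries, so that vehicle library 3 stood apart for this keratin and not for most interferon-stimulated genes. Of 6 endothelial markers tested 2 were lower, of 7 fibroblast markers 1 was higher, and of 2 hepatocyte markers 1 was higher and 1 lower. The leukocyte list had no call of its 3 tested genes, and its sum was 21.5 to 30.5 CPM in the libraries numbered 3 and 21.0 to 35.9 CPM in the others. The part of these features in the result was not tested.

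Once the group means were removed, the members moved together from library to library. Over the 903 pairs of members the median correlation across 12 libraries was 0.844, and 97.1% of pairs were positive. These correlations describe 12 libraries, the 4 numbered 3 among them, and all members share each library's depth and scaling. A single component carried 87.4% of the members' variation, compared with 21.8% for all genes. The correlation with the members' median passed 0.8 for 35 genes. OAS1, OAS2, OAS3 and MX2 were among the closest at 0.991, 0.988, 0.985 and 0.984, while IRF9 at -0.087 and IRF1 at 0.395 were the farthest.

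TGFβ was compared with vehicle to ask how the cytokine alone changed these genes. The fit over 12 libraries put 12 of the 43 genes lower with TGFβ and none higher. The 12 are 27.9% of the members, set against 18.1% of all genes tested that were lower, and the absence of higher members stands against 18.9% that were higher. With a stricter filter on low counts 13 of 42 members were lower, 31.0% beside 25.3% of all genes. None was higher with it, beside 23.7% of all genes. DESeq2 gave 13 lower (17.7% of all genes) and none higher (19.8%), and 18 members had an unadjusted p under 0.05 with edgeR. With a term for number 3, 22 members were lower (21.1% of all genes) and 1 was higher (21.3%). That term takes the same gap in every group, although the gaps given above differed. Without the filter on low counts 25 were lower (8.57%) and 2 higher (10.2%). Here and below, shares without the filter are of 42087 genes, which include genes too low in counts for the main test. The median log2 change was -0.28 over the members and -0.03 over all genes. RNA from a bulk culture cannot tell fewer cells that make a gene from less RNA per cell. Marker lists of other cells moved in the same comparison: 6 of 7 fibroblast markers were higher with TGFβ, their summed level rising from 1089 to 1322 CPM with vehicle to 4682 to 6232 CPM, and of the leukocyte markers CD14 was lower and CSF1R higher. Both tested hepatocyte markers were higher, 1 endothelial marker of 6 was higher and 2 were lower, and 4 cholangiocyte markers of 11 were higher and 3 lower. PTPRC, which marks all leukocytes, was at or near 0 in every library, and the part of these markers in the result was not tested. In 17 members all 3 TGFβ libraries lay below all 3 vehicle libraries (23.7% of all genes), and in 1, BST2, they lay above (23.0%).

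Among the transcription factors, 3 of 4 fell. STAT2, the ISGF3 subunit that carries the activation domain (chr12:56341597-56360203), measured 189.5, 188 and 178 CPM with vehicle, 135, 129 and 118 with TGFβ, 197, 199 and 170.1 with Aramchol and 124, 136 and 127 with both. All TGFβ libraries lay below all vehicle libraries, and STAT2 was 1.45-fold lower with TGFβ (log2 change -0.54 ± 0.067 (SE), edgeR adjusted p = 1.05e-05). IRF1, the factor first known for its induction by interferon γ, measured 86.1, 81.3 and 89.4 CPM with vehicle, 65.4, 68.4 and 62.9 with TGFβ, 79.6, 79.1 and 77.05 with Aramchol and 62.1, 58.7 and 60.5 with both. It was 1.31-fold lower (log2 change -0.39 ± 0.052 (SE), edgeR adjusted p = 2.21e-05), and the groups again did not overlap. IRF1 shares 22.9% of its exon bases with other genes, chiefly the antisense gene IRF1-AS1, which averaged 8.46 CPM and itself fell with TGFβ (log2 change -0.98). IRF9, the DNA-binding subunit of ISGF3, measured 15, 14.5 and 16.96 CPM with vehicle, 13.6, 12.1 and 12.7 with TGFβ, 15.01, 15.6 and 15.6 with Aramchol and 14.2, 13.6 and 15.6 with both. Its fall was 1.21-fold (log2 change -0.28 ± 0.082 (SE), edgeR adjusted p = 0.0143), and the call was lost without vehicle library 3 or TGFβ library 2, with an edgeR adjusted p of at most 0.0719. IRF7, which amplifies the response, was at 38.4, 35.7 and 32.6 CPM with vehicle, 37.6, 35.7 and 27.2 with TGFβ, 64.5, 59.7 and 37.1 with Aramchol and 54.7, 52.7 and 50.3 with both and did not pass the test with TGFβ (log2 change -0.086 ± 0.16 (SE), edgeR adjusted p = 0.716).

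The IFIT proteins bind viral RNA or the translation machinery, and 3 of the 4 fell with TGFβ. IFIT2, which promotes cell death as well, was at 323, 336 and 375 CPM with vehicle, 214, 196 and 122 with TGFβ, 300.5, 279.8 and 194 with Aramchol and 90.5, 86.4 and 62.9 with both. Every TGFβ library lay below every vehicle library, at a 1.95-fold lower level (log2 change -0.96 ± 0.19 (SE), edgeR adjusted p = 0.000776). IFIT2 shares 13.6% of its exon bases with other genes, chiefly LIPA, which averaged 93.8 CPM and changed by -0.19 on the log2 scale with TGFβ. IFIT3, which stabilises IFIT1, was at 346, 343 and 379 CPM with vehicle, 251, 229 and 167 with TGFβ, 369, 361 and 257 with Aramchol and 158, 163 and 149 with both, 1.65-fold lower with TGFβ (log2 change -0.72 ± 0.13 (SE), edgeR adjusted p = 0.000474). IFIT1, which binds RNA caps that lack a methyl group, averaged 214 ± 3.002 CPM with vehicle and 133 ± 43.1 with TGFβ (SD, n = 3; log2 change -0.69 ± 0.21 (SE), edgeR adjusted p = 0.0188). Without TGFβ library 3 its edgeR adjusted p was 0.0758. IFIT5 did not pass (log2 change -0.27 ± 0.13 (SE), edgeR adjusted p = 0.112).

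Of the ISG15 conjugation genes, HERC5, the ligase that attaches ISG15 to newly made proteins, was the 1 of 5 that fell. It measured 157, 163 and 176 CPM with vehicle, 104, 95.7 and 66.99 with TGFβ, 160.4, 158 and 104 with Aramchol and 62.2, 61.8 and 42.99 with both, with no overlap between TGFβ and vehicle (1.86-fold lower, log2 change -0.90 ± 0.17 (SE), edgeR adjusted p = 0.000698). ISG15 itself (log2 change -0.22 ± 0.21 (SE), edgeR adjusted p = 0.447), its conjugating enzyme UBE2L6 (log2 change -0.31 ± 0.12 (SE), edgeR adjusted p = 0.0508) and USP18, the protease that removes it (log2 change -0.049 ± 0.23 (SE), edgeR adjusted p = 0.898), did not pass. OASL was the 1 of 4 OAS genes that fell, 1.67-fold (log2 change -0.74 ± 0.16 (SE), edgeR adjusted p = 0.00148). OAS1, OAS2 and OAS3 had log2 changes of -0.50, -0.56 and -0.027, with edgeR adjusted p of 0.108 or more.

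DDX60, a helicase described as a cofactor of RIG-I, measured 332, 345 and 395 CPM with vehicle, 306, 273 and 269.6 with TGFβ, 434, 432 and 350.0 with Aramchol and 255, 271 and 256 with both and was 1.26-fold lower with TGFβ (log2 change -0.34 ± 0.084 (SE), edgeR adjusted p = 0.00466). The sensor IFIH1 (MDA5) averaged 71.1 ± 1.02 CPM with vehicle and 61.2 ± 14.6 with TGFβ (SD, n = 3) and did not pass. PSMB8, a catalytic subunit of the immunoproteasome, measured 93.7, 90.1 and 75.7 CPM with vehicle, 72.7, 68.9 and 63.04 with TGFβ, 99.2, 101 and 84.1 with Aramchol and 81.3, 77.9 and 73.05 with both and was 1.27-fold lower (log2 change -0.34 ± 0.086 (SE), edgeR adjusted p = 0.0051). Its partner PSMB9 (log2 change -0.17 ± 0.078 (SE), edgeR adjusted p = 0.106) and the peptide transporter genes TAP1 and TAP2 (log2 changes 0.054 and 0.025) did not pass. DTX3L and PARP9, which form a ligase complex, both fell, by 0.43 (edgeR adjusted p = 0.00726) and 0.36 (adjusted p = 0.0154) on the log2 scale. The PARP9 call was lost without TGFβ library 3, at an edgeR adjusted p of 0.084.

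With edgeR, none of the 2 MX genes, the 5 IFI genes and the 10 other antiviral effectors passed the test with TGFβ. The median log2 change of the 10 other effectors was 0.14, with BST2 (tetherin, which holds budding virus at the cell surface) at 0.43 and SAMD9 at 0.31. SAMD9, whose product restricts poxviruses, was at 72.4, 76.8 and 85.1 CPM with vehicle and 117, 95.9 and 78.05 with TGFβ, so that libraries 1 and 2 lay apart and library 3 did not. RSAD2 (viperin, which makes a chain-terminating nucleotide) and its neighbour CMPK2, a mitochondrial nucleotide kinase, had log2 changes of -0.072 and -0.47. For IFI44 the 12 values were 136, 137 and 158 CPM with vehicle, 184, 164 and 122 with TGFβ, 204, 196 and 128 with Aramchol and 146, 149 and 133 with both, a log2 change of 0.13 with TGFβ. Without the libraries numbered 3, 20 members were lower (18.1% of all genes) and 7 were higher (18.7% of all genes). The 7 were SAMD9, IFI44, BST2, SAMD9L, SP110, XAF1 and TRIM22. In those 8 libraries IFIT2 changed by -0.69, OASL by -0.67, HERC5 by -0.68 and STAT2 by -0.52 on the log2 scale, each with an edgeR adjusted p of 5.19e-09 or less. The count of higher members was 1 without TGFβ library 3 (16.0% of all genes) and 2 without Aramchol library 3 (18.4%).

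**Figure D3:**
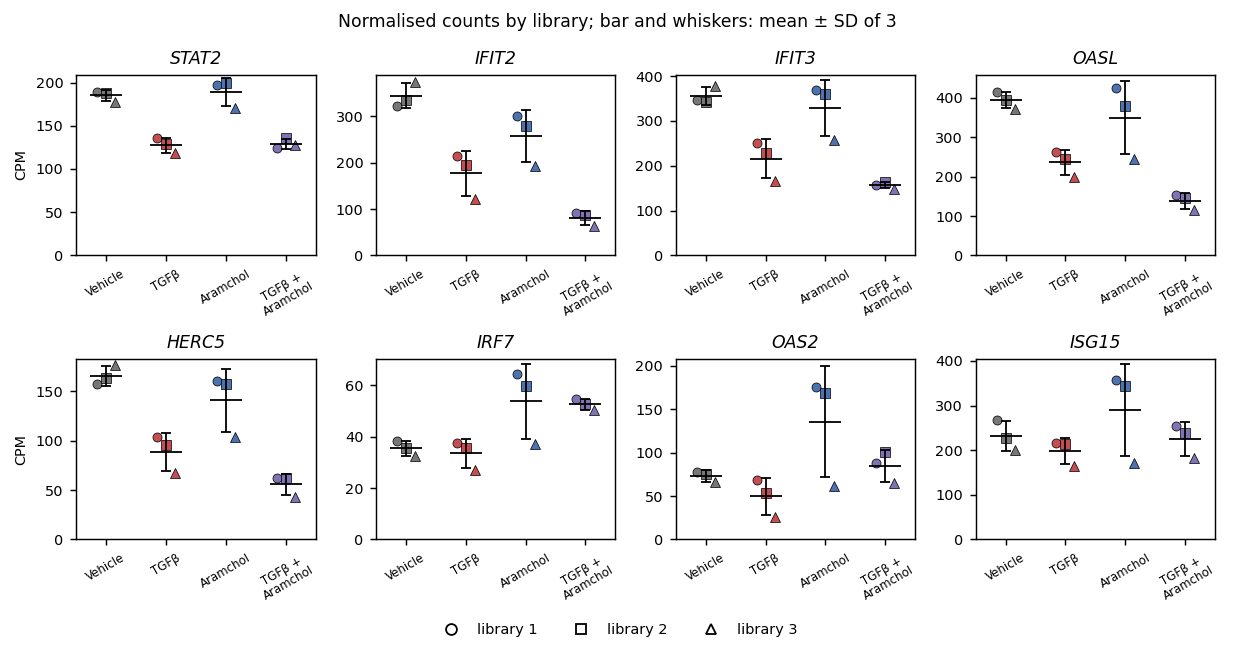
Each panel shows 1 gene in CPM on an axis from 0; circles, squares and triangles are libraries 1, 2 and 3 of a group, and the bar with whiskers is the mean ± SD of 3. For STAT2, IFIT2, IFIT3, OASL and HERC5 every TGFβ library lies below every vehicle library, and for OAS2, ISG15 and IRF7 Aramchol library 3 lies far below Aramchol libraries 1 and 2.

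Aramchol alone was compared with vehicle to ask what the compound did without TGFβ. No member passed the edgeR test in either direction, beside 0.357% of all genes in either direction (51 higher and 26 lower, or 37 and 38 with upper-quartile scaling). The members' log2 changes were above 0 for 36 of 43, with a median of 0.35 (all genes -0.01). An unadjusted p under 0.05 was found for 29, a level not counted over all genes. DESeq2 called 3 higher, SP110, DTX3L and TAP1 (0.988% of all genes). With a term for number 3 the call changed to 16 members higher (1.37% of all genes). That term takes the same gap in every group, whereas the median gap was -0.02 with vehicle and -0.67 with Aramchol. Without the filter on low counts 29 were higher (0.634% of 42087 genes) and 2 lower (0.627%). The smallest adjusted p was that of TAP1, the transporter that carries peptides into the endoplasmic reticulum (log2 change 0.28 ± 0.069 (SE), edgeR adjusted p = 0.109). Its values were 117, 109.5 and 119 CPM with vehicle and 149, 149 and 122 with Aramchol. IRF7 followed (log2 change 0.59 ± 0.16 (SE), edgeR adjusted p = 0.141), with Aramchol libraries 1 and 2 well above vehicle and library 3 at 37.1 CPM, inside the vehicle range. Groups did not overlap in 7 members above vehicle (7.74% of all genes) and in 3 below, CXCL10, IRF1 and IFIT2 (8.26%).

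Aramchol libraries 1 and 2 differed from library 3 in this comparison. Taking libraries of the same number, the members' median log2 difference from vehicle was 0.52 for number 1, 0.52 for number 2 and -0.12 for number 3, with 40, 38 and 15 genes above 0. Libraries were matched by number only to describe them, here and below, and were not taken as pairs. MX1, a dynamin-like GTPase that traps viral nucleocapsids and is named here after its values were seen, shows the pattern. It was at 516, 473 and 451 CPM with vehicle and 1042, 1038 and 517 with Aramchol, so that library 3 lay just above the vehicle range and the others far above it. Without Aramchol library 3, 13 members were higher (0.265% of all genes), among them IRF7, TRIM22, MX2, BST2, TAP1 and OAS3. With libraries 1 and 2 of every group alone, 33 members were higher (3.23% of all genes) and 1, IFIT2, was lower (3.86%). In those 8 libraries MX1 changed by 1.07 on the log2 scale (edgeR adjusted p = 2.09e-11), OAS2 by 1.16 (edgeR adjusted p = 8.59e-11) and IFI6 by 0.79 (edgeR adjusted p = 3.46e-10). IFIT2 changed by -0.18 (edgeR adjusted p = 0.0389). Members not called in those 8 libraries included STAT2, IRF1, IRF9, IFIT3, OASL and HERC5. The libraries numbered 3 were set apart with earlier results of these data known. The p-values from those 8 libraries rest on 2 per group and are no independent test.

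Aramchol was next added to TGFβ, and both agents were compared with TGFβ alone. IFIT2 and OASL were lower and IRF7 was higher with both, out of 43. Of all genes 1.36% were lower and 0.89% higher. IFIT2 was 2.22-fold lower than with TGFβ alone (log2 change -1.15 ± 0.19 (SE), edgeR adjusted p = 0.0101), at levels given above that did not overlap, and the call held with each of the 12 libraries left out in turn (largest adjusted p 0.0495). LIPA, its overlapping neighbour, had a log2 change of -0.039 (edgeR adjusted p = 0.726). OASL was 1.71-fold lower (log2 change -0.78 ± 0.16 (SE), edgeR adjusted p = 0.0213), with a largest edgeR adjusted p of 0.0888 in the 5 leave-outs that lost the call, those of TGFβ libraries 1 and 2 and of each library with both. IRF7 was 1.57-fold higher (log2 change 0.65 ± 0.16 (SE), edgeR adjusted p = 0.0436), and every library with both exceeded every TGFβ library. Its call held in 4 of 12 leave-outs, with an edgeR adjusted p of up to 0.193; it was kept without vehicle libraries 1 or 3 and without Aramchol libraries 1 or 3.

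HERC5 (log2 change -0.67 ± 0.18 (SE), edgeR adjusted p = 0.0597) and IFIT3 (log2 change -0.46 ± 0.13 (SE), edgeR adjusted p = 0.088) did not pass, although their libraries with both agents lay below all TGFβ libraries. In all, 5 members lay wholly below TGFβ alone (12.2% of all genes), namely HERC5, IRF1, IFIT3, IFIT2 and OASL. In 16 members all libraries with both lay above all with TGFβ alone (11.5% of all genes), MX1, MX2, OAS1, OAS3, IFI6, IFI27, PARP9 and DTX3L among them. MX1 with both was at 752, 764 and 643 CPM and with TGFβ alone at 522, 422 and 233 (log2 change 0.88 ± 0.25 (SE), edgeR adjusted p = 0.0819). The OAS family was split: OAS1, OAS2 and OAS3 had log2 changes of 0.65, 0.77 and 0.45, none past the test, while OASL fell. Over all members the median was 0.21, and 32 of 43 changes were above 0. By number the median differences were 0.11, 0.26 and 0.37. Of the marker lists, 1 of 7 fibroblast markers and CSF1R among the leukocyte markers were lower with both than with TGFβ alone, and their part in the result was not tested.

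Without Aramchol library 3, 8 members were higher with both than with TGFβ alone (0.906% of all genes), and 4 were lower (1.45%), IFIT2, OASL, HERC5 and IFIT3. The leave-out of vehicle library 3 gave 6 higher (2.23%) and 4 lower (3.2%). That of TGFβ library 3 gave 0 higher (0.201%) and 4 lower (0.371%). DESeq2 called 4 lower (3.02%), IFIT2, OASL, HERC5 and IFIT3, and 4 higher (1.81%), IRF7, DTX3L, PARP9 and TAP1. With a term for number 3, 16 were higher (3.37% of all genes) and 4 lower (4.43%), and without the filter on low counts 18 were higher (0.981%) and 5 lower (2.06%). With libraries 1 and 2 alone, 17 were higher (3.51% of all genes) and 6 were lower (5.01%). The 6 were IFIT2 (-1.21), OASL (-0.76), HERC5 (-0.68), IFIT3 (-0.58), RSAD2 (-0.39) and IFI44 (-0.24), as log2 changes.

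TGFβ in the presence of Aramchol was measured by comparing both agents with Aramchol alone. Here 14 of 43 members were lower and none was higher with edgeR, where 19 had an unadjusted p under 0.05. DESeq2 gave 12 lower (14.8% of all genes) and none higher (16.4%). With edgeR the background was 14.2% lower and 16.0% higher, and the median log2 change was -0.29 over the members and -0.01 over all genes. With the stricter filter 14 of 42 members were lower, 33.3% beside 19.4% of all genes, and none was higher (21.0%). All libraries with both lay below all with Aramchol alone in 10 members of 43, a share near the 21.8% of all genes that did so, and above in none (22.7% of all genes). Of the marker lists, 5 of 7 fibroblast markers and both tested hepatocyte markers were higher with both, CD14 was lower and CSF1R higher, 2 of 6 endothelial markers were higher and 1 lower, and 3 of 11 cholangiocyte markers were higher and 4 lower. Their part in the result was not tested. IFIT2 had the smallest p and was 3.23-fold lower (log2 change -1.69 ± 0.19 (SE), edgeR adjusted p = 5.26e-06). OASL followed at 2.54-fold (log2 change -1.34 ± 0.16 (SE), edgeR adjusted p = 7.90e-06), then STAT2 at 1.46-fold (log2 change -0.55 ± 0.067 (SE), edgeR adjusted p = 1.15e-05). IFIT3 fell 2.10-fold (log2 change -1.07 ± 0.14 (SE), edgeR adjusted p = 1.53e-05), DDX60 1.55-fold (log2 change -0.64 ± 0.084 (SE), edgeR adjusted p = 2.42e-05) and HERC5 2.53-fold (log2 change -1.34 ± 0.18 (SE), edgeR adjusted p = 2.46e-05). These 6, IRF1 and IFIT1 kept their calls in all 12 leave-outs.

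The other calls were PSMB8, PSMB9, DTX3L, PARP9, HERC6 and RSAD2, and each was lost in some leave-outs. RSAD2 changed by -0.90 on the log2 scale (edgeR adjusted p = 0.0313). The count of lower members was 26 without Aramchol library 3 (12.1% of all genes). It was 8 without Aramchol library 1 (11.2%), without Aramchol library 2 (10.8%) or without library 3 of both agents (11.1%). With libraries 1 and 2 alone it was 36 (15.1%), with a term for number 3 it was 23 (17.2%), and without the filter on low counts 27 (7.12%). By number, the median difference was -0.47, -0.41 and 0.05. CXCL10, which never passed 1.59 CPM, had a log2 change of 0.57 that did not pass.

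**Figure D4:**
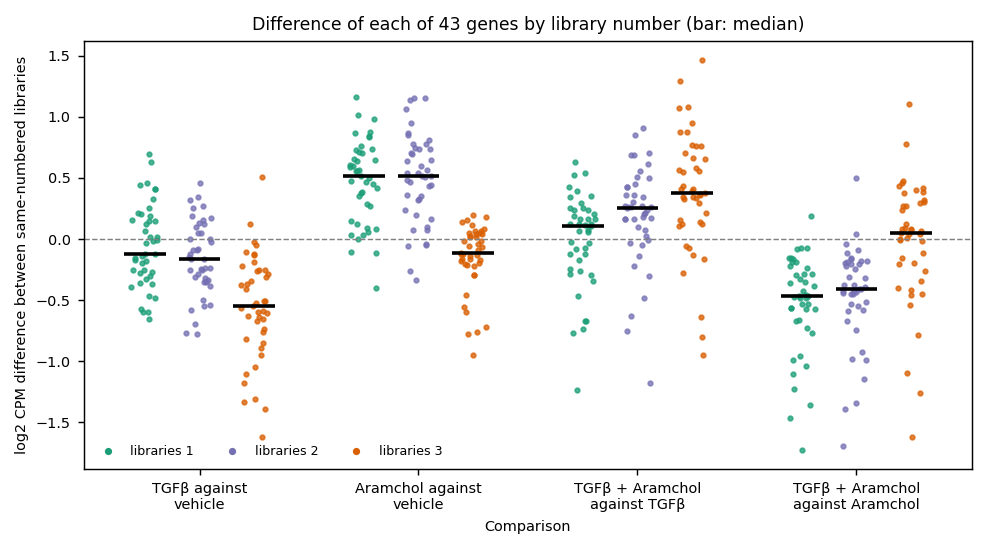
Each point is 1 of the 43 genes; the vertical axis is the log2 CPM difference between the libraries of the same number in the 2 groups compared, the colours are numbers 1, 2 and 3, and bars mark medians. For Aramchol against vehicle the medians are 0.52, 0.52 and -0.12, and for TGFβ against vehicle -0.12, -0.16 and -0.55. Libraries of the same number were not taken as pairs.

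TGFβ against vehicle and both agents against Aramchol share no library, so their values can be set side by side, whereas the comparisons that have a group in common share its 3 libraries. IFIT2 changed by -0.96 without Aramchol and -1.69 with it, OASL by -0.74 and -1.34, HERC5 by -0.90 and -1.34, STAT2 by -0.54 and -0.55. The difference of these changes, the interaction, was past the threshold for none of the 43 members (0.0139% of all genes) with edgeR, and 3 had an unadjusted p under 0.05, IFIT2, OASL and DDX60. It was -0.73 ± 0.27 (SE) for IFIT2 (edgeR adjusted p = 0.898) and -0.60 ± 0.22 for OASL (edgeR adjusted p = 0.898). For STAT2 it was -0.010 ± 0.095 (SE), and for IRF1 0.007 ± 0.073 (SE). DESeq2 called none (0.0139% of all genes higher and 0.107% lower), and 4 had an unadjusted p under 0.05 with it. Without the filter on low counts 6 members had a lower interaction (0.271% of 42087 genes). With a term for number 3 none was called (0.0417% of all genes higher, 0.102% lower). A replicate block gave none either (0.0325% of all genes higher, 0.0742% lower). No member was called with any library left out, Aramchol library 3 among them (0.0179% of all genes lower). With libraries 1 and 2 alone, 22 members had a lower interaction (0.533% of all genes), and those with the smallest p included IFIT2 (-1.03, edgeR adjusted p = 8.54e-09), RSAD2 (-1.22, edgeR adjusted p = 2.96e-08) and IFI44 (-0.79, edgeR adjusted p = 6.69e-07). The libraries numbered 3 were left out with earlier results known, so these p-values, from 2 libraries per group, are no independent test.

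The rest of the pathway was read from lists of other genes, against the same backgrounds. Of 8 interferon ligands, only IFNE and IFNL1 passed the filter. IFNL1, a type III interferon of epithelia, was at 0.326, 0.132 and 0.360 CPM with vehicle, 0.554, 0.408 and 0.200 with TGFβ, 0.219, 0.192 and 0.149 with Aramchol and 0.108, 0.0663 and 0.0745 with both, and it was lower with both than with TGFβ alone (log2 change -2.20 ± 0.50 (SE), edgeR adjusted p = 0.0353). Of 11 receptors, kinases and STATs, 3 were higher and 2 lower with TGFβ. JAK2, a kinase of the interferon γ receptor, was at 35.5, 37.4 and 35.7 CPM with vehicle, 14.1, 13.8 and 15.04 with TGFβ, 38.2, 36.99 and 32.5 with Aramchol and 14, 15.3 and 12.1 with both and fell 2.53-fold with TGFβ (log2 change -1.34 ± 0.085 (SE), edgeR adjusted p = 4.76e-09). IFNGR2, a chain of that receptor, rose by 0.52, and JAK1 by 0.33 on the log2 scale.

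Among 14 genes of nucleic acid sensing, 7 were lower with TGFβ and 2 higher. STING1, the adaptor of the DNA sensor cGAS, fell by 0.8, IKBKE by 0.59 and MAVS, the adaptor of the RNA sensors, by 0.35 on the log2 scale. TICAM1, the adaptor of TLR3, rose by 0.39, and IRF3 and its kinase TBK1, named after their values were seen, were called in no comparison. Of 10 negative regulators 8 were lower with TGFβ and none was higher, SOCS3 by 1.4 (50.3, 48.6 and 40.9 CPM with vehicle, 17.9, 18.1 and 17.1 with TGFβ). In class I presentation 5 of 14 were lower, NLRC5, an activator of class I genes, among them, and 1, the chaperone CALR, was higher. None of these lists had a call with Aramchol alone.

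Of 29 further interferon-induced genes tested, 12 were lower and 2 higher with TGFβ, 14 lower and 1 higher with both against Aramchol, and 17 lower and none higher in the libraries numbered 3. GBP2, a guanylate-binding protein, was at 50.4, 49.3 and 50.1 CPM with vehicle, 27.4, 22.97 and 22.6 with TGFβ, 39.3, 38.3 and 40.9 with Aramchol and 21.1, 19.7 and 20.7 with both. It fell with TGFβ (log2 change -1.04 ± 0.070 (SE), edgeR adjusted p = 9.09e-09) and was the 1 gene of the list called with Aramchol (log2 change -0.34 ± 0.068 (SE), edgeR adjusted p = 0.0485). ZC3HAV1, the antiviral protein ZAP, was the 1 called between both agents and TGFβ alone, at 392, 402 and 435 CPM with vehicle, 395, 398 and 360.0 with TGFβ, 409, 404 and 334 with Aramchol and 248, 260.0 and 254 with both (log2 change -0.60 ± 0.072 (SE), edgeR adjusted p = 0.00134). Its 3 libraries with both agents lay below all the other 9. EPSTI1 had the smallest p of this list for the libraries numbered 3 (log2 change -0.47 ± 0.051 (SE), edgeR adjusted p = 1.14e-05).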

How the data were processed

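Per the labels' protocols, Trizol was used for RNA and an IDT 2S Plus DNA kit for the libraries. STAR 2.7.9a, featureCounts of Subread and GRCh38 are listed in the submitters' processing notes, which list DESeq2 too. The deposited values are read counts per gene with a gene length per row, given by the authors without normalization. Neither the strand setting nor the annotation release is named in the labels or tool lists used here.

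Counts were tested with edgeR 4.0.16 in R 4.3.3 (quasi-likelihood, 1 mean for each of 4 groups, TMM scaling, filterByExpr), with Benjamini-Hochberg adjustment over 21567 genes and a threshold of 0.05. The contrast of libraries numbered 3 added an indicator to the groups. Each treatment contrast was also run with DESeq2 1.42.0, other scalings and filters, a replicate block, a term for number 3, libraries 1 and 2 alone, only the groups compared, and each library left out. CPM was TMM-scaled; differences by library used log2 of CPM plus 0.5. Per-length levels used the deposited length. The edgeR script was checked on simulated counts. The members, the lists and the contrast of libraries numbered 3 were chosen with earlier results of these data known. Values in all libraries are given for the smallest p-values per contrast (8 members for TGFβ and for number 3, 6 elsewhere), the 4 factors and the 3 highest per length. Of the pathway lists, called genes are named by their smallest p; some list genes are not reported here. Library depth was 52279922 to 70339925 counts, and 20616 gene IDs had no count. SDs measure the spread between the libraries of a group, and the limit of 3 counts covers counting error only. Standard errors were derived from the log2 change and the F statistic of the edgeR test. They rest on a spread between libraries that is pooled over the groups and moderated across genes.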

Additional observations from a re-analysis of the deposited data

How the results depend on the processing

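The counts of members past the threshold depended on how the libraries numbered 3 and the genes with low counts were treated. Without a filter on low counts, TGFβ against vehicle gave 2 higher and 25 lower, Aramchol against vehicle 29 and 2, both against TGFβ 18 and 5, both against Aramchol 27 lower and the interaction 6 lower. DESeq2 gave 3 higher for Aramchol against vehicle (0.988% of all genes), and 4 higher (1.81%) and 4 lower (3.02%) for both against TGFβ. The replicate block gave 22 lower for TGFβ (20.9% of all genes) and 11 higher for Aramchol (1.21%). For both against TGFβ it gave 16 higher (2.99%) and 4 lower (4.06%), and for both against Aramchol 23 lower (17.0%). It gave none for the interaction. A term for number 3 gave 1 higher and 22 lower for TGFβ, 16 higher for Aramchol, 16 higher and 4 lower, 23 lower, and none for the interaction. Libraries 1 and 2 alone gave 7 higher and 20 lower, 33 higher and 1 lower, 17 higher and 6 lower, 36 lower, and 22 lower for the interaction. Only the groups compared gave 1 higher for TGFβ (17.9% of all genes), and 10 higher (1.66%) and 4 lower (3.1%) for both against TGFβ. With each library left out in turn, TGFβ gave 0 to 2 higher (16.0 to 18.4% of all genes) and 10 to 18 lower (14.5 to 17.5%). Aramchol gave 0 to 13 higher (0.0675 to 0.997%). Both against TGFβ gave 0 to 8 higher (0.0985 to 2.23%) and 1 to 4 lower (0.135 to 3.2%). Both against Aramchol gave 8 to 26 lower (10.8 to 15.7%), and number 3 gave 17 to 36 lower (4.35 to 6.95%). Other scalings and a stricter filter (42 members tested) moved no count by more than 1.5 times, and no change that passed the threshold turned its direction. The cause was not tested. Same-numbered libraries correlated over 0.1 in all 6 pairs of number 3 (0.111 to 0.221) and in 1 of the 12 pairs of numbers 1 and 2 (from 0.00739). Libraries numbered 3 thus shared a deviation, but those numbered 1 and 2 were often closer to the other number, so the numbers were not taken as pairs. At these depths every member had counts in every library, and the number of libraries limits the precision. Leave-outs that reduced a group to 2 libraries kept the spread pooled over groups.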
